A study of Homo sapiens with 33 samples.

Results

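Of the 58302 genes in the expression table, 6 carry the symbols of the cyclin-dependent kinase (CDK) inhibitors left besides the genes of the 9p21 locus, and these are described here. CDKN1A (p21), CDKN1B (p27) and CDKN1C (p57) form the CIP/KIP family, CDKN2C (p18) and CDKN2D (p19) belong to the INK4 family, and CDKN3 encodes KAP, a phosphatase that associates with CDKs. They were taken by symbol alone, and all 6 reached 100 CP20M (counts per 20000000 reads, the unit of the table) in at least 1 library, as did 17803 genes in all. INK4 proteins bind CDK4 and CDK6 without their cyclins, and thereby keep D-type cyclins away from these kinases. CIP/KIP proteins bind whole cyclin-CDK complexes, block CDK2, and also help cyclin D and CDK4 to assemble. In malignant pleural mesothelioma (MPM), where CDKN2A and CDKN2B are often deleted, these genes are the CDK inhibitors that remain.

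The 33 RNA-seq libraries came from 6 established cell lines. The sensitive class, named for its response to the CDK4 and CDK6 inhibitor palbociclib, holds the MPM lines MSTO-211H, H28, H2452 and H2052, and the study's description records the deletion of CDKN2A and CDKN2B in all 4. The resistant class holds MPP89, of MPM origin and mutated in RB1, and MeT-5A, mesothelial cells made immortal with SV40, whose large T antigen binds pRb. Cells received 0.1% DMSO or 1 µM palbociclib in the same experiment, for 9 days in experiments 1 and 2, or for 10 days in experiment 2 of H2052 and in experiment 3 of H2452, H28 and MSTO-211H. This gave 11 pairs of libraries from the sensitive lines (2 of H2052 and 3 of each of the others) and 3 from the resistant class, where MPP89 gave 2 and MeT-5A 1. In addition, 4 washout libraries, 1 for each sensitive line, came from cells kept without the drug for 48 h after the 10 days, and MeT-5A had 1 untreated library. Repeated experiments of a line measure the spread of that line only, and MeT-5A and MPP89 stand for the resistant class alone.

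A library of the lowest depth that could be estimated (12770000 reads) counted each read as 1.57 CP20M, so the lowest values below rest on few reads. Of 12 mesothelial markers, 6 to 9 averaged at least 100 CP20M in the control libraries of each line, KRT5 was below that level in every line, and CALB2 was below it in the 4 sensitive lines. The summed level of the 12 markers ran from 48367 CP20M in H28 to 121613 in H2052. Of 5 leukocyte markers, 1 or 2 averaged at least 100 CP20M in each line, namely CD68 in all 6 lines and CD14 in H2452, MPP89 and MeT-5A, and the summed level ran from 155 CP20M in H28 to 1383 in H2452. PTPRC was below 100 CP20M in every line, and CD3E was listed at 0.

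With DMSO, the 6 genes differed widely between the lines, and CDKN1A, which encodes p21, differed most. MSTO-211H had 9192, 9144 and 8314 CP20M of CDKN1A in its 3 DMSO libraries. H28 had 4222, 5939 and 8117, and H2052 had 5953 and 6991. MeT-5A lay lower, with 2518 in the DMSO library and 2347 in the untreated one. MPP89 had 532 and 381, and H2452 had 142, 112 and 169. The line with the highest mean therefore had 63.0 times the CDKN1A level of the lowest, and no library of H2452 or MPP89 came near those of the other lines. Line accounted for 98.4% of the variance of log2(CP20M + 10) of CDKN1A over the 28 DMSO and palbociclib libraries. In the order of lines, the steps from MSTO-211H to H2052 and on to H28 did not pass the test (adjusted p = 0.107 and 0.65, limma), whereas each further step, to MeT-5A, MPP89 and H2452, did (log2 differences of 1.27, 2.41 and 1.63).

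CDKN1B, whose product p27 is mainly controlled by its degradation, had the narrowest range of levels. MeT-5A was highest at 2687 CP20M with DMSO and 2612 untreated. MPP89 had 1082 and 1409, H2452 965, 1304 and 968, MSTO-211H 1019, 1186 and 944, H2052 807 and 895, and H28 598, 624 and 641. MeT-5A stood above all other lines, and among the next 4 lines no neighbours differed detectably (adjusted p from 0.125 to 0.868, limma). H28 was the lowest line, 4.27 times lower in mean than MeT-5A, although its step from H2052 (0.45 on the log2 scale) stayed under the 1.5-fold threshold.

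CDKN2C, an INK4 gene, was most abundant in MeT-5A (2125 and 1609 CP20M), followed by H2452 (1258, 1001 and 962) and MPP89 (1003 and 1080). H2052 had 534 and 306, H28 had 407, 188 and 440, and MSTO-211H had 240, 100 and 228. Only the step from MPP89 to H2052 passed the test between neighbours in this order (log2 difference 1.34, SE 0.42, adjusted p = 0.0146). CDKN2D, the other INK4 gene, was likewise highest in MeT-5A (434 and 299 CP20M) and lowest in MSTO-211H (49, 21 and 40), a 10.0-fold range of means. H2452, H2052, MPP89 and H28 lay between them, with mean levels from 111 to 168 CP20M, and no step between neighbours among them passed the test.

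CDKN3 had 1133 and 1001 CP20M in MeT-5A and 737 and 805 in MPP89. All DMSO libraries of the sensitive lines were lower, from 135 in H28 to 491 in H2052. CDKN1C, an imprinted gene, was highest in MPP89 (456 and 433 CP20M) and MeT-5A (292 and 438), and lowest in H2452 (42, 28 and 33), 12.9 times below MPP89 in mean. H2052 (133 and 302) and H28 (114, 223 and 80) varied among their own libraries, while MSTO-211H had 215, 204 and 200.

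Over the 6 lines, all 6 genes passed the F test for a difference between lines, as did 96.3% of all genes tested. Pairs of lines that differed by over 1.5-fold with an adjusted p under 0.05 numbered 13 of 15 for CDKN1A, 8 for CDKN1B, 9 for CDKN1C, 10 for CDKN2C, 9 for CDKN2D and 11 for CDKN3. Over all genes 50.2% of such pairs were called. The resistant and sensitive classes were compared on the means of the lines, with a two-sided exact permutation test over the 15 choices of 2 of 6 lines, whose smallest p is 0.0667. CDKN1B (log2 difference 1.04) and CDKN3 (1.72) had higher means in both resistant lines than in any sensitive line. They gave p = 0.0667 in this exact test, with a Benjamini-Hochberg adjusted p of 0.2 over the 6 genes. The CDKN1B libraries of MPP89 overlapped those of H2452 and MSTO-211H (adjusted p = 0.278 and 0.212, limma). CDKN1C (1.67) also had higher means in both resistant lines than in any sensitive line, with p = 0.133 in the exact permutation test. CDKN2C, CDKN2D and CDKN1A gave p = 0.2, 0.267 and 0.733 in that exact permutation test, which cannot pass 0.05 with 2 lines against 4.

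Per kilobase of the exons of the main transcript, CDKN1A was the most abundant of the 6 in H2052 (3057 CP20M per kb), H28 (2878) and MSTO-211H (4196). CDKN2C was the most abundant in the other lines, at 1079 CP20M per kb in H2452, 1047 in MPP89 and 1876 in MeT-5A. CDKN1A held the fifth place of the 6 in H2452, at 66.6 CP20M per kb, and in MPP89, at 216. CDKN2D or CDKN1C was the least abundant gene in every line. The order rests on the length of 1 transcript per gene, while the values were counted per gene. For CDKN2C this length was 995 bases, against 3018 for all its annotated exons, and its first place in MPP89 and MeT-5A depends on that choice.

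**Figure D1:**
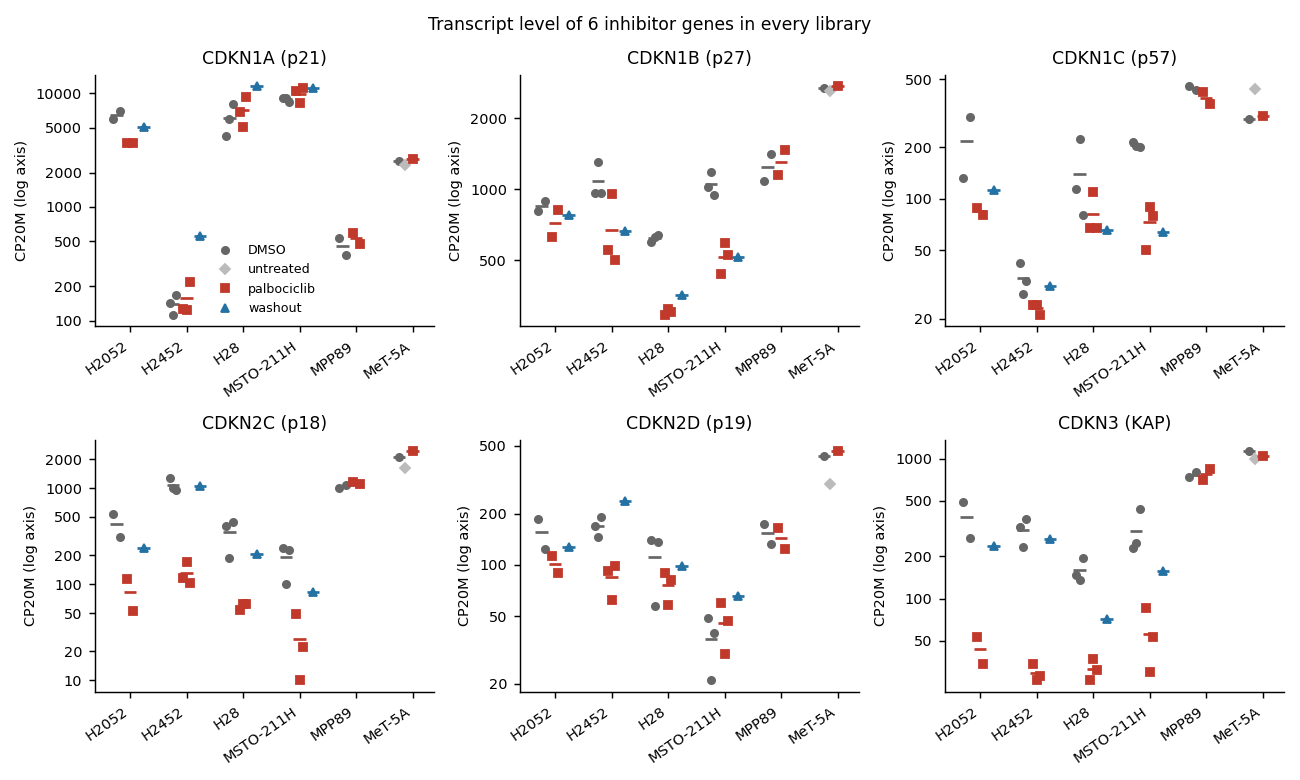
CP20M (log axis) of the 6 genes in the 33 libraries, by cell line, with circles for DMSO, squares for palbociclib, triangles for washout and a diamond for the untreated library, and short lines for means. CDKN1A of H2452 sat at 112 to 169 CP20M with DMSO, against 8314 to 9192 in MSTO-211H, and the palbociclib squares of CDKN2C and CDKN3 lay below the DMSO circles in each sensitive line but not in MPP89.

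With palbociclib, CDKN2C and CDKN3 fell steeply in the 4 sensitive lines, CDKN1B and CDKN1C fell by less, and CDKN1A and CDKN2D were not called. Differentially expressed (DE) genes were those with a fold change over 1.5 in either direction and an FDR under 0.05 (limma, all genes, experiment as a block). Of the 6 genes, 4 were called lower and none higher, beside 9.37% of all genes called lower and 5.58% higher. Over all genes the log2 fold change had a median of -0.11 as deposited and 0.06 after median-of-ratios scaling. The share of calls that were lower was 62.7% as deposited, 34.4% with median-of-ratios scaling and 45.3% with upper-quartile scaling. The calls of CDKN1B, CDKN1C, CDKN2C and CDKN3 over the sensitive lines held under both scalings. The fit took the 11 pairs as its units, although they came from only 4 lines. Its adjusted p values, given gene by gene below, therefore concern these lines and not sensitive lines at large. With the mean of each line as the unit, all 4 genes were still called, but with higher adjusted p. It was 0.0234 for CDKN2C and 0.0239 for CDKN3 (limma).

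CDKN2C (ENSG00000123080) lies on chromosome 1 from 50960745 to 50974634 on the plus strand of GRCh38 (GENCODE 44). Palbociclib took it from 534 and 306 to 114 and 52 CP20M in H2052, and from 1258, 1001 and 962 to 116, 169 and 103 in H2452. In H28 it went from 407, 188 and 440 to 54, 62 and 62, and in MSTO-211H from 240, 100 and 228 to 49, 10 and 22. No palbociclib library of a sensitive line reached the lowest DMSO library of the same line. Over the 11 pairs CDKN2C fell by 2.51 on the log2(CP20M + 10) scale (SE 0.15, adjusted p = 1.81e-07, lower in 11 of 11 pairs), which ranked it 71 from the bottom of the 17803 genes. In bulk libraries such as these, fewer cells that express a gene and less of its RNA per cell cannot be told apart.

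CDKN3 (ENSG00000100526, chromosome 14 from 54396849 to 54420218, plus strand) encodes the phosphatase KAP, which removes the activating phosphate from CDK1 and CDK2. It went from 491 and 271 to 53 and 34 CP20M in H2052, and from 325, 235 and 369 to 34, 26 and 28 in H2452. The DMSO libraries of H28 had 148, 135 and 195 and its palbociclib libraries 26, 37 and 31. MSTO-211H had 229, 251 and 434 with DMSO and 85, 30 and 53 with the drug. The 11 DMSO libraries (135 to 491) and the 11 palbociclib libraries (26 to 85) of the sensitive lines did not overlap at all. The change over the pairs was -2.51 (SE 0.17, adjusted p = 4.06e-07, lower in 11 of 11 pairs), rank 72 from the bottom. Pairs with palbociclib in MSTO-211H ranged from -1.33 to -2.82, the widest spread of any line for this gene.

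Promoter sequence is shown for these 2 genes because they fell together. Of the 6 genes, 5 had at least 1 window of RefSeq promoter sequence (GRCh38.p14, 250 bases before to 50 after a start). Windows were searched on both strands for an E2F core, spelled TTCCCGC or with the other letters TTCGCGC, likewise TTGCCGC and finally TTGGCGC, for the cell cycle homology region (CHR) TTTGAA and for the CCAAT box CCAAT. The E2F core TTGGCGC and the reverse complement of the CCAAT box, ATTGG, can share letters. An E2F core stood in 13.0% of all 35116 windows, a CHR in 15.2% and a CCAAT box in 34.6%. The stretch of CDKN3 below ends at the base before the annotated start (chr14:54396757-54396848, plus strand). The stretches of CDKN2C (chr1:50968565-50968591 and chr1:50968662-50968688, plus strand) lie within the annotated gene, before the start that their window was drawn for. The first base of that window lies in an annotated exon, and which transcript the exon belongs to was not recorded. Capitals mark a CCAAT box and then a CHR (its reverse complement) in CDKN3, and an E2F core in each stretch of CDKN2C, as its reverse complement in the first.
CDKN3: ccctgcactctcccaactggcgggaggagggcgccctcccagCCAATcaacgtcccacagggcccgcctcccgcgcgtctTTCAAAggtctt
CDKN2C, first: agagcgggagGCGGGAAtgagggcgcg
CDKN2C, second: gcgcccggccTTCCCGCtcccgcggcg
The windows of CDKN1A, CDKN1B and CDKN2D held no E2F core and no CHR in these letters, while a CCAAT box stood in that of CDKN1B (3 matches), in that of CDKN2D (1) and in another window of CDKN2C (1). The window of CDKN3 held a further CCAAT box (its reverse complement, at -83), beyond the stretch shown, and no E2F core. CDKN2C had 3 windows and the other genes with a window had 1 each. No window of CDKN2C held a CHR, and the one shown was picked for its E2F cores. A match is a description of the sequence and no evidence of binding.

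CDKN1B (ENSG00000111276, chromosome 12 from 12685498 to 12722369, plus strand) over the sensitive lines fell by 0.80 on the log2 scale (SE 0.10, adjusted p = 2.85e-05, lower in 11 of 11 pairs). Its palbociclib libraries had 292, 309 and 301 CP20M in H28 and 436, 591 and 524 in MSTO-211H, all below the DMSO libraries of the same line (598 to 641 and 944 to 1186). H2452 went to 552, 956 and 502, against a lowest DMSO value of 965. In H2052 it stayed at 625 and 812, close to 807 and 895 with DMSO, and the groups overlapped. By line, the pairs of H28 gave a mean difference of -1.02 ± 0.04 (SD, n = 3) and those of MSTO-211H gave -1.01 ± 0.19 (SD, n = 3). The pairs of H2452 gave -0.72 ± 0.25 (SD, n = 3), and H2052 had the smallest mean, -0.25 ± 0.16 (SD, n = 2).

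CDKN1C (ENSG00000129757, chromosome 11 from 2883213 to 2885775, minus strand) had 88 and 81 CP20M with palbociclib in H2052 and 24, 24 and 21 in H2452. The corresponding libraries of H28 had 110, 68 and 68, and those of MSTO-211H had 50, 90 and 79. All 11 pairs were lower with the drug, by ratios of 0.23 to 0.86. The palbociclib libraries lay below every DMSO library of the same line except in H28. Over the 11 pairs it fell by 0.88 (SE 0.16, adjusted p = 0.00076). With the 4 pairs of 10 days alone, the difference was -0.92 with an adjusted p of 0.0794.

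CDKN1A (ENSG00000124762, chromosome 6 from 36676460 to 36687337, plus strand) did not move in a common direction. In H2052 it went from 5953 and 6991 to 3694 and 3668 CP20M. The palbociclib libraries of H2452 had 126, 125 and 220, those of H28 6898, 5099 and 9319, and those of MSTO-211H 10564, 8253 and 11056. In these 3 lines the palbociclib and DMSO libraries overlapped, and 2 of 3 pairs were higher in each. Over the 11 pairs the difference was -0.01 (95% interval -0.29 to 0.27, adjusted p = 0.953), 6 pairs being higher and 5 lower. Its sign turned with either scaling, with the 10-day pairs alone, and with either H2052 pair or any 1 of 3 pairs of other lines left out.

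CDKN2D (ENSG00000129355, chromosome 19 from 10566460 to 10569059, minus strand) also varied by line. It had 112 and 89 CP20M with palbociclib in H2052 and 92, 62 and 99 in H2452, below all DMSO libraries of these lines. H28 had 89, 58 and 81, within the reach of its DMSO libraries (57 to 139). MSTO-211H had 60, 30 and 47, and each of its 3 pairs was higher with palbociclib, by ratios of 1.18 to 1.43. Its DMSO libraries (21 to 49 CP20M) overlapped these, and values this low rest on few reads. Over the 11 pairs the difference of -0.40 (SE 0.15, adjusted p = 0.0399) was under the 1.5-fold threshold, and 7 pairs were lower and 4 higher.

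**Figure D2:**
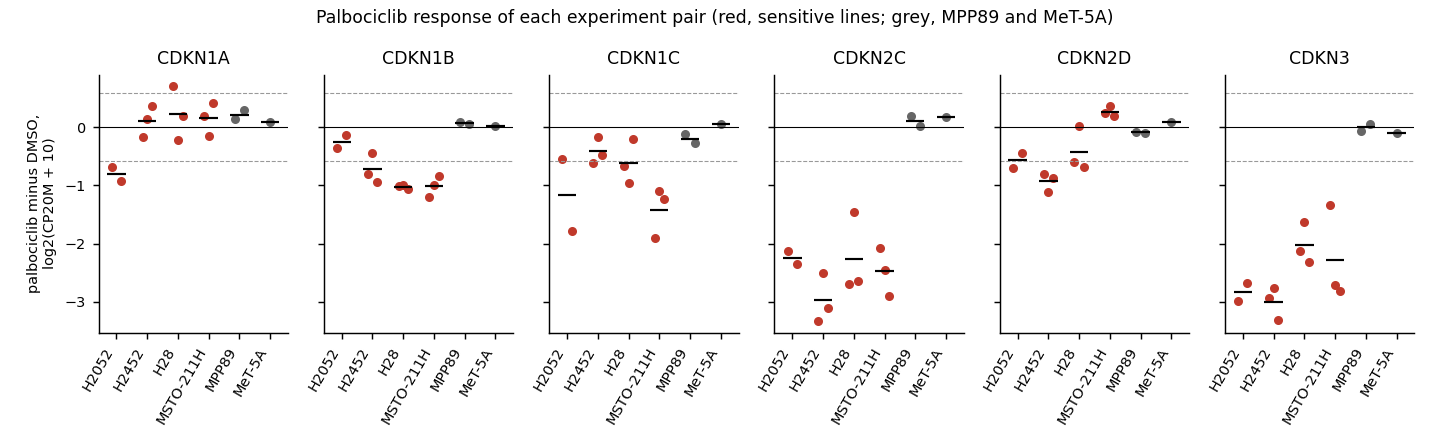
Palbociclib minus DMSO on the log2(CP20M + 10) scale for each experiment pair (points) with the mean of each line (black bars), in red for the 4 sensitive lines and in grey for MPP89 and MeT-5A, and dashed lines at 1.5-fold. All 11 red points of CDKN2C and CDKN3 lay at or below -1.33, those of CDKN2D lay on both sides of 0, and the grey points of all genes lay between -0.27 and 0.30.

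In fits of single lines, CDKN2C and CDKN3 were called lower in each of the 4 sensitive lines. CDKN1B was called lower in H2452, H28 and MSTO-211H, CDKN1C in MSTO-211H (-1.41, adjusted p = 0.0391), CDKN2D in H2452 (-0.93, adjusted p = 0.018) and CDKN1A in H2052 (-0.81, adjusted p = 0.0397). All of these calls were lower with palbociclib. They came to 3 of the 6 genes in H2052, where 13% of all genes were called lower and 4.67% higher (17.7% in all), and to 4 in H2452, where 10.8% were lower and 6.04% higher (16.8%). For H28 they came to 3, beside 7.34% of all genes lower and 5.89% higher (13.2%), and for MSTO-211H to 4, beside 7.94% lower and 5.9% higher (13.8%). The call of CDKN1A in H2052 was lost with median-of-ratios scaling (-0.49, adjusted p = 0.0821), with upper-quartile scaling (-0.60, adjusted p = 0.0527) and without the trend in limma (adjusted p = 0.0534). That of CDKN1B in H2452 fell under the fold threshold with both scalings (-0.53 and -0.58) and was lost without the block (adjusted p = 0.121). Without the trend CDKN2C and CDKN3 also lost their calls in H2052 (adjusted p = 0.05 for both), and 0 of all genes were called there. CDKN2C in H2052 was lost without the block too (adjusted p = 0.05), and CDKN3 in MSTO-211H with median-of-ratios scaling (adjusted p = 0.0507). With 1 of the 3 pairs left out, 0 of the 6 genes were called in H28 and MSTO-211H, whichever pair it was, and in H2452 without replicate 1 or 3, and 0 of all genes were called in these fits. With the filter at 100 CP20M applied to the remaining libraries alone, 3 to 4 of the 6 were called.

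Differences between the 4 lines were tested directly with an F test of the line by treatment terms. CDKN2D (F = 9.69, adjusted p = 0.0112), CDKN1B (F = 8.65, adjusted p = 0.0148) and CDKN1A (F = 6.79, adjusted p = 0.0259) passed, which are 3 of 6 genes, beside 37.1% of all genes. For CDKN1A the line that stood apart was H2052 (-0.81 ± 0.17, SD, n = 2, against means of 0.12 to 0.23). For CDKN1B it was H2052 again, with the smallest fall, and for CDKN2D the mean differences ran from -0.93 ± 0.16 (SD, n = 3) in H2452 to 0.27 ± 0.09 (SD, n = 3) in MSTO-211H. CDKN1C (adjusted p = 0.1), CDKN2C (adjusted p = 0.29) and CDKN3 (adjusted p = 0.138) did not pass. Without the block the adjusted p of CDKN1A, CDKN1B and CDKN2D was 0.177, 0.195 and 0.219, and that of CDKN1A was 0.0941 with median-of-ratios and 0.0534 with upper-quartile scaling.

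In the resistant lines none of the 6 genes was called in either fit, and neither was any other gene (0% of 17803 by limma in MPP89 alone, with 918 genes at an unadjusted p under 0.05, and 0% with MeT-5A added, with 1258). With palbociclib MPP89 had 588 and 470 CP20M of CDKN1A, 1149 and 1473 of CDKN1B and 419 and 358 of CDKN1C. It had 1144 and 1097 of CDKN2C, 164 and 123 of CDKN2D, and 704 and 842 of CDKN3. MeT-5A with palbociclib had 2669 CP20M of CDKN1A, 2747 of CDKN1B, 304 of CDKN1C, 2411 of CDKN2C, 464 of CDKN2D and 1054 of CDKN3. The 18 differences of the 3 pairs lay between -0.27 and 0.30 on the log2 scale. Over the 3 pairs the 95% interval of the difference was -0.15 to 0.08 for CDKN3 and 0.02 to 0.24 for CDKN2C (adjusted p = 0.868 and 0.689).

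The test of the difference between the sensitive and the resistant response called 3 of the 6 genes, all lower in the sensitive lines, beside 5.62% of all genes lower, 1.13% higher and 6.75% in either direction. The difference was -2.65 for CDKN2C (SE 0.29, adjusted p = 0.000302), -2.48 for CDKN3 (SE 0.33, adjusted p = 0.00085) and -0.86 for CDKN1B (SE 0.19, adjusted p = 0.0132). CDKN1C (-0.77, adjusted p = 0.147), CDKN2D (-0.37, adjusted p = 0.447) and CDKN1A (-0.18, adjusted p = 0.687) did not pass. The call of CDKN1B was lost when any resistant pair was left out (adjusted p from 0.0748 to 0.0849) and with median-of-ratios scaling (adjusted p = 0.0815), with the difference still at -0.64 there. Those of CDKN2C and CDKN3 held in these settings. The fit took the 14 pairs as its units, although they came from only 4 sensitive and 2 resistant lines. Its adjusted p therefore concerns these lines and not the classes at large.

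After 48 h without palbociclib, CDKN2C and CDKN3 rose in all 4 sensitive lines, while CDKN1B and CDKN1C were higher in 2 lines and lower in 2 and were not called. CDKN2C of H2452 went from 103 to 1049 CP20M (109% of its DMSO library), and that of H2052 from 52 to 236 (77.1%). For H28 it went from 62 to 204 (46.4%), and for MSTO-211H from 22 to 83 (36.4%). CDKN3 of H2052 went from 34 to 238 CP20M (87.8% of DMSO), and that of H2452 from 28 to 266 (72.1%). For H28 it went from 31 to 71 (36.4%), and for MSTO-211H from 53 to 157 (36.2%). For both genes H28 and MSTO-211H stood at lower percentages of DMSO than the other lines. Against palbociclib, CDKN2C rose by 2.08 (SE 0.27, adjusted p = 0.0119) and CDKN3 by 1.94 (SE 0.29, adjusted p = 0.0185), 2 of 6 genes, beside 1.4% of all genes called higher and 0% called lower (none by limma, of 2322 genes at an unadjusted p under 0.05 in either direction). Each line gave 1 library per condition. Both calls were lost without H2052 (adjusted p = 0.187 and 0.197), without H2452 (0.0597 and 0.107), without MSTO-211H (0.111 for both) and without the line as a block (1 and 0.228), but not without H28. The difference itself was 2.11, 1.70 and 2.26 for CDKN2C and 1.75, 1.63 and 2.11 for CDKN3 without H2052, H2452 and MSTO-211H in turn. In these 3 fits 0 of all genes were called, and without H28 104 were, against 250 with all 4 lines.

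With palbociclib and then after washout, CDKN1B had 812 and 776 CP20M in H2052, and 502 and 667 in H2452. The values were 301 and 354 for H28, and 524 and 515 for MSTO-211H. Against DMSO, washout left CDKN1B lower by -0.61 (SE 0.15, adjusted p = 0.0322, lower in 4 of 4 lines), the only one of the 6 genes called in that comparison, beside 2.95% of all genes called lower and 2.81% higher (5.76% in all). This call was lost with both scalings, with a pseudocount of 50, without the block, and without H2452, H28 or MSTO-211H (adjusted p from 0.089 to 0.165). The 1026 calls over all genes came to 232 without H2052, 645 without H2452 and 245 without MSTO-211H. CDKN3 (-0.85, adjusted p = 0.085, lower in 4 of 4 lines), CDKN1C (-0.79, adjusted p = 0.092, 4 of 4) and CDKN2C (-0.67, adjusted p = 0.135, 3 of 4) had larger differences from DMSO than CDKN1B, with larger standard errors (0.27 to 0.29), and were not called. CDKN1C after washout had 113 CP20M in H2052 and 31 in H2452, and 66 and 64 for H28 and MSTO-211H, from 32.0% to 93.9% of DMSO. The washout difference from palbociclib was 0.13 for CDKN1C (95% interval -0.48 to 0.75) and 0.14 for CDKN1B (-0.20 to 0.47).

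CDKN1A was higher after washout than with palbociclib in all 4 lines (5022 against 3668 CP20M in H2052, 555 against 220 in H2452, and less far apart for MSTO-211H, 11264 against 11056, than for H28, 11617 against 9319). H2452, the line with the lowest CDKN1A, thereby had 3.28 times the level of its DMSO library, while H2052 had 0.72 times. The mean difference of 0.52 from palbociclib was not called (95% interval -0.11 to 1.16, adjusted p = 0.493). CDKN2D had 127, 237, 98 and 66 CP20M after washout in H2052, H2452, H28 and MSTO-211H, above palbociclib (89, 99, 81 and 47) in each, and was not called (0.58, adjusted p = 0.264). Exact sign-flip permutation tests over 4 lines cannot go below 0.125, the value they gave for CDKN1A, CDKN2C, CDKN2D and CDKN3 against palbociclib.

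**Figure D3:**
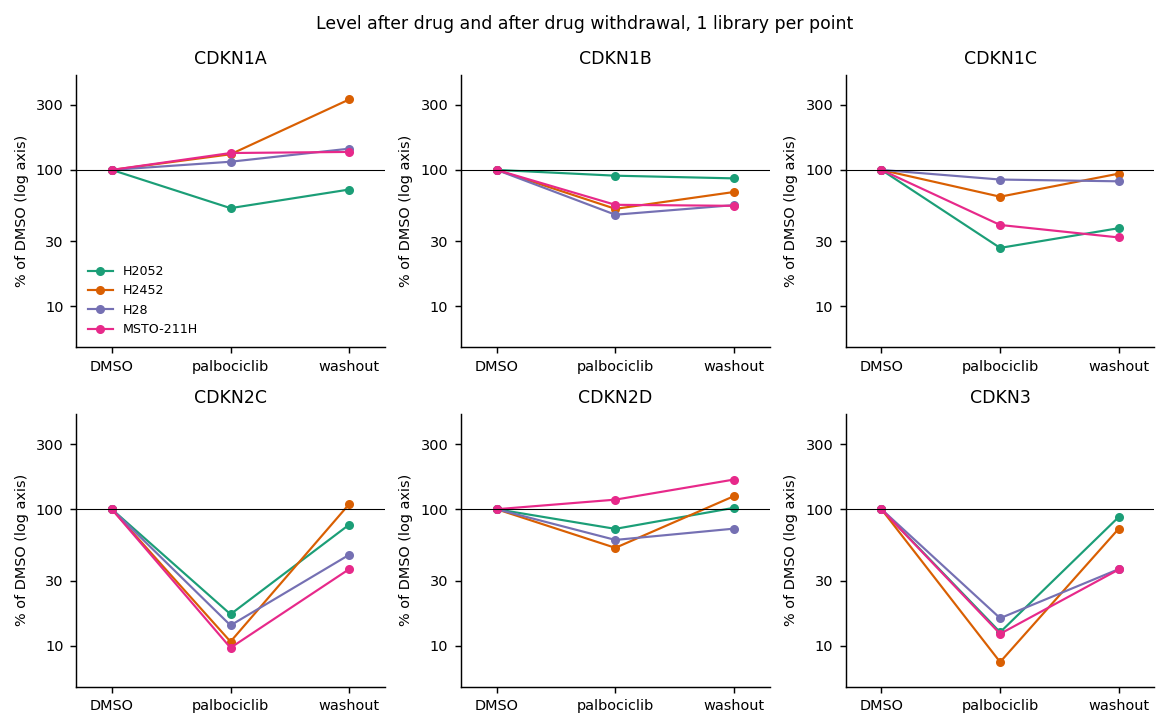
Level of each gene as a percentage of the DMSO library of the same experiment (log axis) with DMSO, with palbociclib and after washout in the 4 sensitive lines, 1 library per point. CDKN2C and CDKN3 dropped in every line and rose again to between 36.2% and 109% of DMSO, while CDKN1B of H28 and MSTO-211H remained at 55.2% and 54.6%.

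Genes that act with the 6 were read from fixed lists in the fit of the 11 sensitive pairs. Of 11 CDKs and cyclins, 5 fell and 2 rose, with a median of -0.39 against -0.11 over all genes. CDK1, the mitotic kinase, fell by 3.12 (adjusted p = 1.07e-05) and CCNA2, the cyclin A of S phase, by 2.58 (adjusted p = 1.92e-06). Both genes that rose encode D-type cyclins, CCND2 from a mean of 384 to 1819 CP20M (log2 difference 2.27) and CCND1 by 1.19. Of 5 genes for pocket proteins and the 9p21 inhibitors, RBL1 (p107) fell by 1.14 and 4 were not called. CDKN2A averaged 7.09 CP20M over the 11 DMSO libraries of the sensitive lines and CDKN2B was listed at 0. By line, the log2 difference of CDKN2A was -0.70 in MSTO-211H (not called) and 0.00 in H2052, H2452 and H28.

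Of 15 mitotic genes (CCNB1 and CDC20 are in other lists too), all fell with palbociclib, with a median of -2.59, and 14 were called higher after washout. KIF2C (-2.95), AURKB (-2.82) and DLGAP5 (-2.77) fell most among them. CDKN2C and CDKN3 changed by nearly the same amount as this median, and these genes and the mitotic list were read from the same libraries. Of 12 genes for the turnover of the inhibitors, 3 fell and none rose. They were CDC20 (-2.42), DTL (-1.65), a receptor for the degradation of p21, and CKS1B (-1.24), the cofactor of SKP2 in the degradation of p27. SKP2 itself had a log2 difference of -0.25 (adjusted p = 0.179).

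Of 13 transcriptional regulators of the family, E2F1 alone was called, lower by -1.02 (adjusted p = 0.0123). By line, E2F1 was called lower in H2452 (-2.22) and H28 (-1.45), and was not called in H2052 (-0.51) or MSTO-211H (0.29). FOXO1, FOXO3 and FOXO4, which activate CDKN1B, had log2 differences of -0.03, -0.23 and -0.15 and were not called. In the fit of MSTO-211H alone, FOXO3 (-0.66) and FOXO4 (-1.05) were called lower. In the other sensitive lines no FOXO gene was called, and FOXO4 was higher (0.20 in H2052, 0.26 in H2452 and 0.10 in H28). Of 11 genes near CDKN1C on chromosome 11, H19 alone was called, from a mean of 15.1 to 4.09 CP20M, a level of few reads. Of 11 mesothelial markers tested in the same comparison, 1 was called, CALB2, higher by 1.69 from a mean of 39.7 CP20M (-0.09 in H28 alone). Of 3 epithelial markers tested, 1 was called, MUC1, higher by 0.99. WT1 (-0.43), VIM (-0.09), KRT19 (-0.02) and CLDN4 (-0.22) were lower and not called, and the other markers tested were higher and not called. Their part in the results above was not tested.

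**Figure D4:**
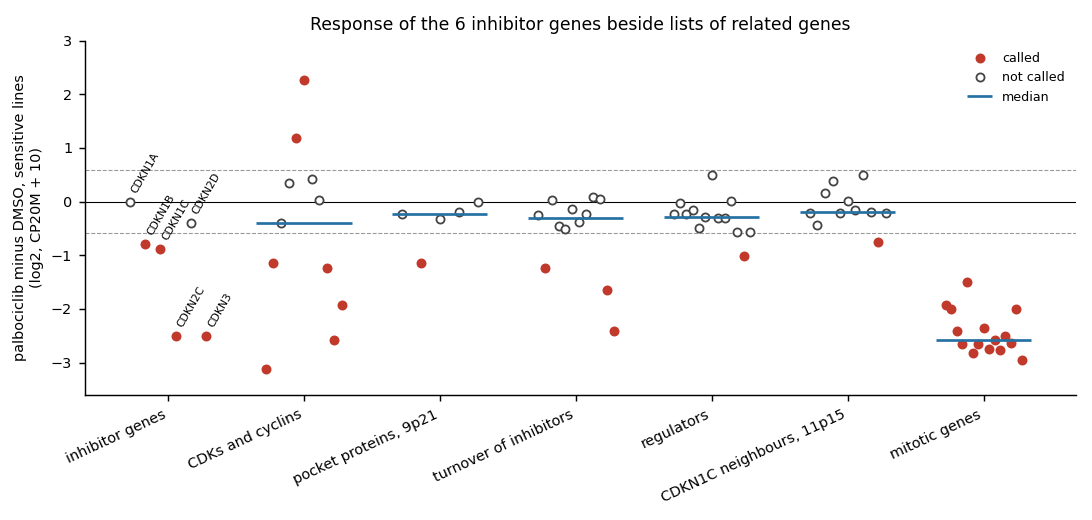
Log2 difference between palbociclib and DMSO (CP20M + 10, 11 sensitive pairs) of the 6 genes, named, and of 6 lists of related genes, with filled points for called genes, open points for the others, blue bars for list medians and dashed lines at 1.5-fold. CDKN2C and CDKN3 sat at -2.51, among the 15 mitotic genes (median -2.59), while CDKN1A sat at -0.01.

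Likeness between genes was described by Pearson's r of log2(CP20M + 10) over the 33 libraries, which share 6 lines and their scaling. Within the family, CDKN2C was most like CDKN3 (r = 0.86) and CDKN2D (r = 0.82), and CDKN1B was like CDKN3 (r = 0.81). CDKN1A had negative r with CDKN1B, CDKN2C, CDKN2D and CDKN3 (-0.49 to -0.17). Among all genes tested, CDKN1A was most like ANKRD33B (r = 0.96), AC106760.1 (0.96) and BTG2 (0.96). CDKN2C was most like PIMREG (0.95), PHF19 (0.94) and WDR62 (0.93), and CDKN3 like HIST1H2AL (0.96), HIST1H2AJ (0.96) and AC125611.4 (0.96), 2 of them histone genes whose near-identical copies can share reads. The median r with the 15 mitotic genes was 0.85 for CDKN3, 0.79 for CDKN2C, 0.60 for CDKN2D, 0.57 for CDKN1C, 0.54 for CDKN1B and 0.02 for CDKN1A. CDKN1B was most like ZSCAN29 (0.93), PTOV1-AS2 (0.91) and PTOV1 (0.91), CDKN1C like ZNF112 (0.94), PUM2 (0.94) and PAPOLG (0.93), and CDKN2D like SOGA1 (0.92), MYH11 (0.88) and SPATC1L (0.88). With the lines the main source of variance, from 53.4% for CDKN3 to 98.4% for CDKN1A, these values rest largely on differences between 6 lines.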

How the data were processed

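RNA of 33 libraries was read paired-end from directional libraries. The authors trimmed reads with Trimmomatic 0.36, mapped them to GRCh38 with STAR 2.5.3, counted them per gene with HTSeq 0.9.1 (its strand setting is not given in the sources used here), and scaled each library. The deposited values are a normalized score, counts per 20000000 reads (CP20M) rounded up to whole numbers, and not counts, so the count model DESeq2 of the authors was not used. Library totals (20007662 to 20021400) hide the depth. It was estimated from the whole numbers that low values skip in 23 libraries (12770000 to 19800000 reads), and the other 10 skip none, so theirs was not estimated. No interval was computed from depth.

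The 17803 genes that reached 100 CP20M in any library were kept, and log2(CP20M + 10) was fitted with limma 3.58.1 (trend) in R 4.3.3, with Benjamini-Hochberg adjustment over all genes. The pseudocount of 10 understates changes of low genes. The experiment was a block, since the authors' methods pair treated and control cells within an experiment. As a check of this pairing, the deviation of each library from its group was compared within 13 pairs, and r ran from 0.18 to 0.78. Replicates are separate experiments of a line. Levels used control libraries (DMSO, with the untreated library for MeT-5A). Washout was fitted on 12 libraries with line as a block. The fits were tested on simulated data. Of 2-fold changes (log2 of 1), 95% were recovered with 11 sensitive pairs, 100% with 3 resistant pairs, 18% in H2052 and 89% for washout. The fit of the difference between classes recovered 72%, with 11 false calls. Changes were placed only in genes that averaged at least 100 CP20M in the fit, with random noise of the variance that limma estimated. Recovery of lower genes was not tested.

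Named genes are the 6 members, the 3 called genes of largest change per list and the 3 genes of highest r. SKP2, CCND1, the FOXO genes, CDKN2A, CDKN2B and the cell type markers were named besides, after their values were seen. Members and lists were chosen with earlier results of these data known. A list of target genes and a marker are not reported here. Alternatives were other scalings, pseudocounts, filters, no trend, no block, line means, the treatment time and leaving out each pair or line. Positions are from GENCODE 44, another release than the authors' annotation. There, exons of CDKN1A and CDKN2C overlap an antisense gene each, by up to 146 and 617 bases. Figures were drawn with matplotlib 3.10.9.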

Additional observations from a re-analysis of the deposited data

Results flagged for a closer look

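The palbociclib response of 3 genes differed between the sensitive and the resistant lines in the test of the difference itself: CDKN2C by -2.65, CDKN3 by -2.48 and CDKN1B by -0.86 on the log2 scale, beside 6.75% of all genes called. CDKN1B lost its call with any resistant pair left out (adjusted p from 0.0748 to 0.0849, limma) and with median-of-ratios scaling (0.0815). The units of this test were the 14 pairs, which came from only 4 sensitive and 2 resistant lines. The response differed among the 4 sensitive lines, by an F test of the line by treatment terms, for CDKN2D (F = 9.69), CDKN1B (F = 8.65) and CDKN1A (F = 6.79), beside 37.1% of all genes. These 3 calls were lost without the block (adjusted p = 0.219, 0.195 and 0.177, limma), and that of CDKN1A also with median-of-ratios (0.0941) and upper-quartile (0.0534) scaling.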

How the results depend on the processing

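Over the sensitive lines, the calls of CDKN1B, CDKN2C and CDKN3 held under all 22 alternatives, with values from -0.86 to -0.60, -2.75 to -1.98 and -2.78 to -1.83 on the log2 scale. CDKN1C lost its call with the 10-day pairs alone (-0.92, adjusted p = 0.0794). CDKN1A, never called there, turned to 0.18 with median-of-ratios scaling, 0.10 with upper-quartile scaling and 0.011 with the 10-day pairs, and ran from -0.083 to 0.081 with a pair left out. With median-of-ratios scaling, CDKN1B turned to 0.062 in H2052 and to -0.0029 for washout against palbociclib, and the CDKN1A difference between classes to 0.033. With a pair left out, CDKN1A ran from -0.0072 to 0.25 in H2452 and from -0.010 to 0.45 in H28, CDKN2D from -0.088 to 0.0069 in the resistant lines and, by line, from -0.033 to 0.31 for washout against DMSO.

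Of the 6 genes, 0 were called in H2052 without the trend. With a pair left out, 0 to 3 were called in H2452 and 0 in H28 and in MSTO-211H (0 genes of all were called in these fits, except 1577 in H2452 without replicate 2), and 4, 3 to 4 and 4 with the filter at 100 CP20M applied to those libraries alone, a choice made after seeing the data. Without the replicate block, 0 were called among the sensitive lines and for washout against palbociclib and against DMSO. With a line left out, 0 to 2 were called for washout against palbociclib and 0 to 1 against DMSO, with either filter. Against DMSO, 0 were called with median-of-ratios scaling, upper-quartile scaling or a pseudocount of 50. Without the block, CDKN2C in H2052 (adjusted p = 0.05) and CDKN1B in H2452 also lost their calls, and no call over the sensitive lines did. With median-of-ratios scaling CDKN3 lost its call in MSTO-211H (adjusted p = 0.0507). The cause of these losses was not tested.

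All genes called numbered 2663 over the sensitive lines, 1687 with a pseudocount of 50 and 1471 with line means as units. They were 6601 among these lines and 2612 without the block, 1202 between classes and 172 to 234 with a resistant pair left out, 250 for washout against palbociclib, 141 with median-of-ratios scaling and 0 without the block, and 1026 against DMSO and 0 without the block. In MPP89, 4 genes were called with the filter within the fit. The share of calls that were lower moved between classes from 83.2% to 42.8% with median-of-ratios scaling, and in H2052 from 73.5% to 29.3%. Values near 10 to 50 CP20M, as for CDKN1C in H2452 and for CDKN2C and CDKN2D in MSTO-211H, rest on few reads.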
